A study of Mus musculus with 12 samples.

Results

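The genes of the oxidative phosphorylation chain were followed in activated mouse CD4+ T cells that had been given IL-12. Members were the genes whose symbol on the array begins with Nduf, Uqcr, Atp5, Cox4, Cox5, Cox6, Cox7 or Cox8, together with Sdha, Sdhb, Sdhc and Sdhd. Each gene was represented by its probe set with the highest mean, and 89 of 19752 genes tested were members. By the roles known for their products, 34 belong to complex I, 4 to complex II, 8 to complex III, 19 to complex IV and 17 to complex V, the ATP synthase. The other 7 (Ndufaf1 to Ndufaf7) help to build complex I and are not subunits of it, so the members are not subunits throughout. Ndufa4 and its paralogue Ndufa4l2 carry complex I names and were placed with complex IV, where the Ndufa4 product is now assigned.

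Oxidative phosphorylation makes ATP in the inner mitochondrial membrane. Complex I takes electrons from NADH and complex II takes them from succinate, complex III hands them to cytochrome c, complex IV passes them to oxygen, and complex V uses the proton gradient that results to make ATP. Most subunits are encoded in the nucleus. T cells that leave rest grow their mitochondria and raise respiration along with glycolysis, and helper T cells that become effectors differ in how far they rely on each.

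Spleens of C57BL/6 male mice, 6 weeks old, gave the cells, which were enriched for CD4+ by removal of the others and activated for 48 h with beads against CD3 and CD28. The groups were 8 h with IL-12 at 100 U/ml (4 samples), 2 h with the same dose (5 samples), 2 h without it (2 samples) and 1 baseline sample with no culture time given. Antigen-presenting cells release IL-12, which turns helper T cells towards the Th1 type. RNA was measured on 12 Affymetrix whole-transcript arrays, whose number limits the precision, and levels below are log2 intensities. Whether the samples within a group are different mice or cultures is not in the labels. The spread behind each p-value is therefore the one between these samples, and it may be technical.

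Sample titles carry a number, and no label says what it means. The IL-12 arrays are numbered 2, 3, 5 and 6 at 8 h and 2 to 6 at 2 h, the untreated arrays 7 and 8, and the baseline array 5. Arrays were split into those numbered 2 to 4 (5 arrays, all with IL-12) and those numbered 5 to 8 (7 arrays). Between these runs 24.3% of all genes differed, in a test that rests on the 9 IL-12 arrays alone. Only 4 of the 7 arrays numbered 5 to 8, those numbered 5 and 6 with IL-12, enter that test. A term for this number run therefore stood in every fit. Marker levels of other cells moved with it. The mean over 17 macrophage and monocyte markers was 6.32 to 6.41 on arrays numbered 2 to 4, against 6.58 to 6.81 on the arrays numbered 5 to 8 other than baseline, with 6.50 on the baseline array. The mean of 7 NK cell markers was 5.44 to 5.68 in the first run, against 5.69 to 5.96 in the second and 5.70 at baseline. For 11 B cell markers these means were 7.38 to 7.54, against 7.18 to 7.34 and 7.66, and for 6 erythroid and platelet markers 7.17 to 7.62, against 6.79 to 7.09 and 7.90. The 11 T cell markers had means of 11.73 to 11.89 on arrays numbered 2 to 4, against 11.69 to 11.85 on the others and 11.82 at baseline, so their mean did not separate the runs. Single T cell markers did differ, with 3 of 11 called higher and 2 lower in numbers 2 to 4, against 11.8% and 12.5% of all genes. In the same test 1 of 2 CD8 markers was lower. Of 9 dendritic cell markers 1 was higher and 2 lower, and of 10 neutrophil markers 2 were higher and 1 lower. No value on this intensity scale is 0, so absence of a marker could not be read from it. In bulk RNA, fewer cells of a type and less RNA per cell cannot be told apart.

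Promoters of 73 members were found in the RefSeq promoter table (build GRCm38.p6), from 250 bases before to 50 after the gene's start. They were searched on both strands for the core site of NRF1 (GCATGCG), an ETS site as read by NRF2/GABP (CCGGAAG) and a YY1 site (AAGATGGC), factors known to act at genes of the respiratory chain. At least 1 of the 3 was found in 34 of the 73 (46.6%), against 20.7% of the 15435 genes on the arrays with a promoter in the table. The NRF1 core stood in 17.8% of member promoters against 5.4%, the ETS site in 24.7% against 13.7%, and the YY1 site in 13.7% against 3.79%. The NRF1 core is nearly its own reverse complement, so a match on each strand can be 1 place. A match is a description of letters and shows no binding.

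The promoters of 4 members that carry results below are shown in the direction of the gene, with the matches in capitals. Sdhb (chr4:140961021-140961320, plus strand) and Ndufa11 (chr17:56717512-56717811, plus strand) were higher after 8 h of IL-12. Atp5l (chr9:44920693-44920992, minus strand) differed between number runs and between untreated and baseline cells. Atp5o (chr16:91931581-91931880, minus strand) was called in all 3 of these comparisons and has no match.
Sdhb: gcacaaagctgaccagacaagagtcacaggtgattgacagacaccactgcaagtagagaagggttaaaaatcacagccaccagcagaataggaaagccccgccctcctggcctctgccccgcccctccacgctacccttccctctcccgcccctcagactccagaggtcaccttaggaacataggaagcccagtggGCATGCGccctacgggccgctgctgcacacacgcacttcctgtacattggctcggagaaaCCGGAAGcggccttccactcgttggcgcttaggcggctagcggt
Ndufa11: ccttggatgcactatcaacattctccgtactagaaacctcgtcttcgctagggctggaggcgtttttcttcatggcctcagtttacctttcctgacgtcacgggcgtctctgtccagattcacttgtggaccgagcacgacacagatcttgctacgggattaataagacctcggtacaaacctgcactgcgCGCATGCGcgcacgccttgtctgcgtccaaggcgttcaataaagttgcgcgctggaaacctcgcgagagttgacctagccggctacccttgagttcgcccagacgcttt
Atp5l: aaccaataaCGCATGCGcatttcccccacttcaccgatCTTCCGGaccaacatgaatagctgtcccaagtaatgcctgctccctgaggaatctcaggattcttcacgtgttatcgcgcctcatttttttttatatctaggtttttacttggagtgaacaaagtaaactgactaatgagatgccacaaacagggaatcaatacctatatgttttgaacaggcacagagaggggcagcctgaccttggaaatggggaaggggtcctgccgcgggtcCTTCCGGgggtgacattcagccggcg
Atp5o: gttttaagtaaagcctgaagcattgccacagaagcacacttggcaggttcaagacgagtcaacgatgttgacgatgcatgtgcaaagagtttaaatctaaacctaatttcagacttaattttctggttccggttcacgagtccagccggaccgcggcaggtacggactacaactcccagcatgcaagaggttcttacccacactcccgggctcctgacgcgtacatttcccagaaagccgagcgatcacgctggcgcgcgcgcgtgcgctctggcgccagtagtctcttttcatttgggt
The Sdhb stretch holds an NRF1 core and, nearer the start, an ETS site, that of Ndufa11 holds the NRF1 core on both strands, and that of Atp5l holds it on both strands with 2 ETS sites on the opposite strand.

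The mean deviation of the 34 complex I genes from their 12-array mean was 0.15, 0.24, -0.01 and -0.05 on the IL-12 8 h arrays numbered 2, 3, 5 and 6. On the 2 h arrays numbered 2 to 6 it was 0.04, 0.04, 0.07, -0.19 and -0.16, on the untreated arrays -0.11 and -0.10, and on the baseline array 0.07. Within each run the 8 h arrays lay above the 2 h arrays, and at each IL-12 time the arrays numbered 2 to 4 lay above those numbered 5 and 6. Complex V showed the same order, with 0.15, 0.23, -0.03 and -0.13 at 8 h, against 0.09, 0.06, 0.10, -0.20 and -0.18 at 2 h. For complex IV the median 8 h minus 2 h change of its 19 genes was 0.0092 within numbers 2 to 4 (13 positive, 6 negative). Within numbers 5 to 8 it was 0.10 (12 positive, 7 negative). The same medians were 0.14 and 0.15 for complex I and 0.07 and 0.10 for complex V. Within complex IV, the 11 generally expressed isoforms had 0.06 and 0.17, and the 8 tissue-restricted isoforms -0.0046 and 0.03. The mean deviation of all 19752 genes stayed between -0.03 and 0.01 on each array.

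**Figure D1:**
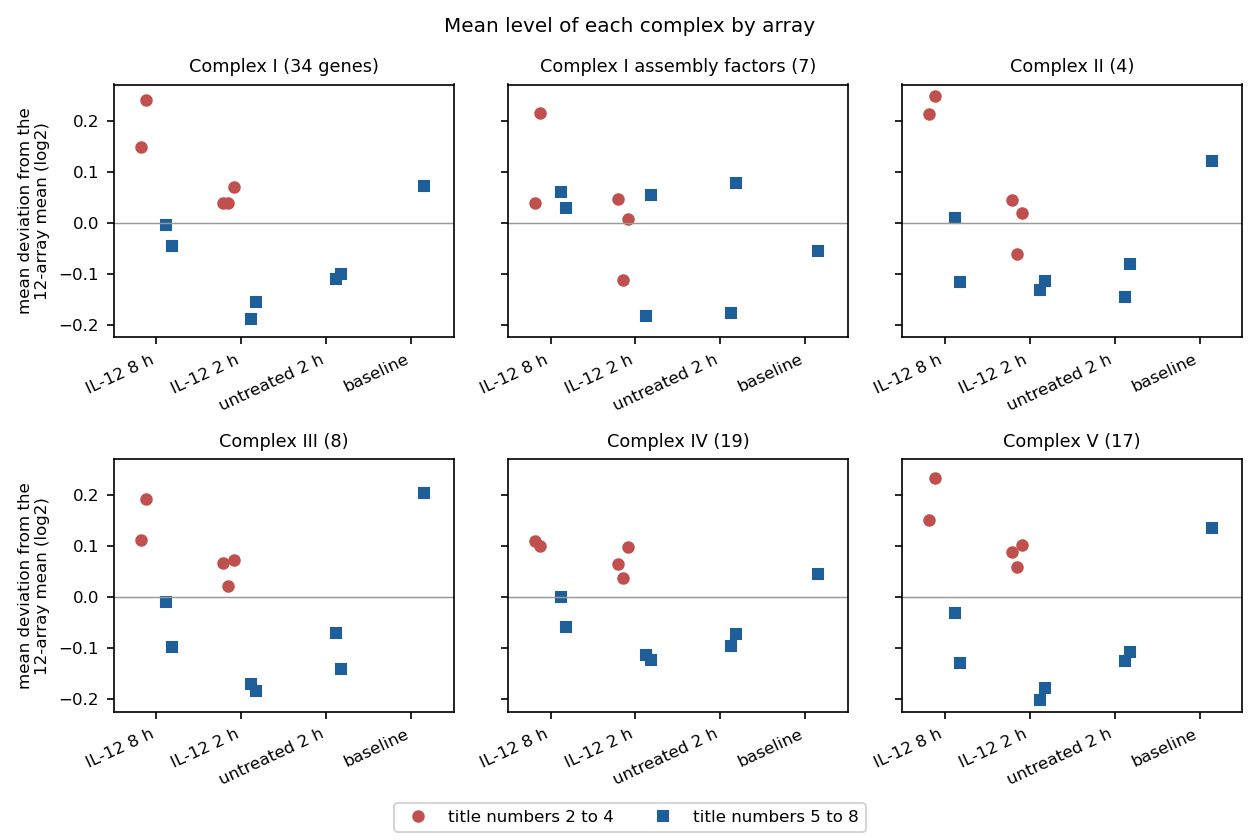
Mean deviation of the members of each complex from their 12-array mean (y axis, log2 units) on each array, by group (x axis), with arrays of title numbers 2 to 4 as circles and 5 to 8 as squares. For complex I the 8 h arrays numbered 2 and 3 stand at 0.15 and 0.24, while the 2 h arrays numbered 5 and 6 stand at -0.19 and -0.16, and the 7 assembly factors show no such separation of the runs.

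**Figure D2:**
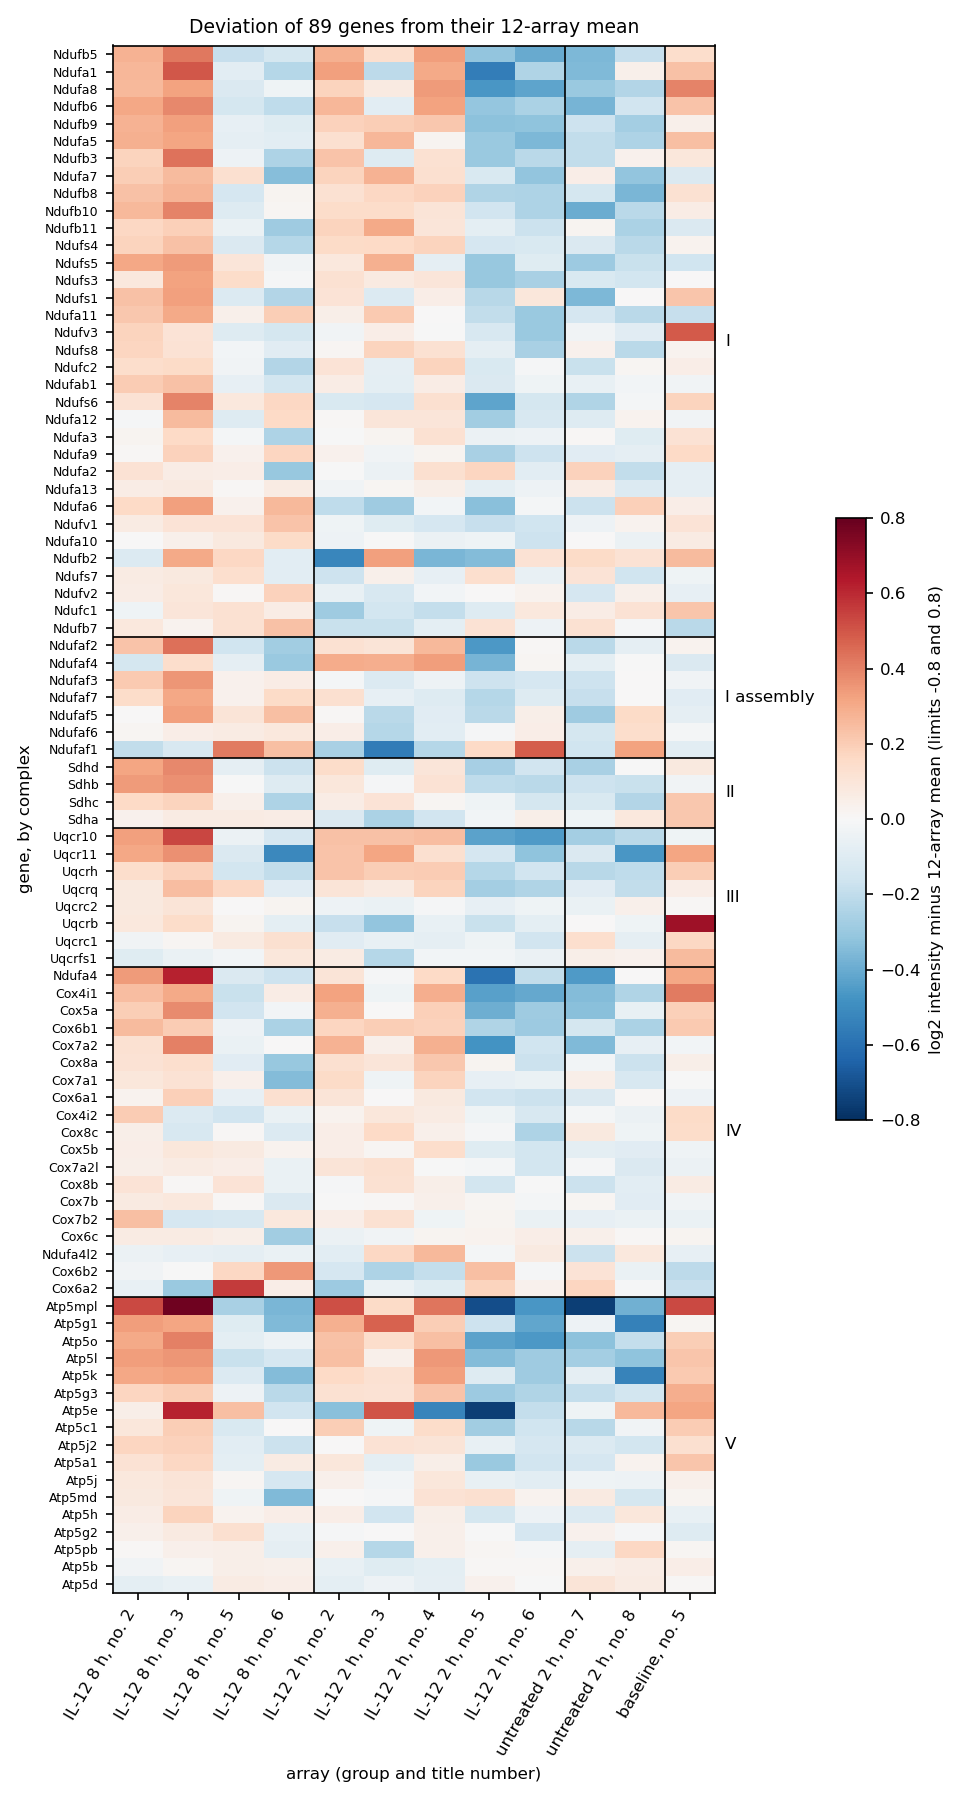
Log2 intensity of each of the 89 members (rows, by complex and, within it, by the difference between number runs) minus its 12-array mean on each of the 12 arrays (columns, by group and title number). Red is above and blue below the mean, with the limits of the colours given on the bar. The members that were higher in numbers 2 to 4 stand at the top of each complex. On the baseline array 40 of these 42 are above the mean of the IL-12 arrays numbered 5 and 6, which their choice by run favours. The same count over all genes called higher by run is not given.

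Between 8 h and 2 h of IL-12, 11 members rose and 0 fell, with folds between 1.15 and 1.29. The 8 h samples were also longer in culture and no untreated 8 h sample was analysed here, so time in culture and IL-12 cannot be told apart in this comparison. The 11 rises made up 12.4% of the members, while 6.27% of all genes were called higher and 6.36% lower. The log2 change was positive in 77 of the 89, with a median of 0.11, against a median of -0.01 over all genes. A call is a limma test whose p, adjusted by Benjamini and Hochberg across the 19752 genes, is under 0.05, and log2 changes are given ± SE of that fit (n = 4 and 5). In 6 members all 8 h arrays lay above all 2 h arrays (3.98% of all genes did). The rises comprised 5 of 34 complex I genes, 2 of 7 assembly factors, 1 of 4 in complex II, 1 of 8 in complex III, 1 of 19 in complex IV and 1 of 17 in complex V.

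Among complex I genes, Ndufv1, the core subunit that binds NADH and its flavin, read 10.90, 10.94, 10.94 and 11.06 at 8 h, against 10.80, 10.74, 10.70, 10.65 and 10.68 at 2 h. All 8 h values lay above all 2 h values, in both number runs. The change was 0.25 ± 0.06 (adjusted p = 0.00991), and Ndufv1 differed between runs by 0.01 ± 0.06. Ndufa6, an accessory subunit, read 10.96, 11.13, 10.84 and 11.06 at 8 h, against 10.60, 10.52, 10.78, 10.47 and 10.79 at 2 h, again without overlap. Its change of 0.37 ± 0.09 was the largest of the 11 (adjusted p = 0.0174). Ndufs6, an accessory subunit that binds zinc, rose by 0.35 ± 0.09 (adjusted p = 0.0165). Its values of 9.79, 10.07, 9.75 and 9.83 at 8 h overlapped those at 2 h (9.55, 9.54, 9.80, 9.25 and 9.53), but within each run the 8 h arrays averaged higher, by 0.30 in numbers 2 to 4 and 0.40 in numbers 5 to 8. Ndufa11, an accessory subunit of the membrane arm, rose by 0.26 ± 0.07, and Ndufa5 by 0.20 ± 0.06. By contrast Ndufs1, the largest core iron-sulfur subunit, changed by 0.10 ± 0.10 (adjusted p = 0.631) and did not pass, and Ndufab1, the mitochondrial acyl carrier protein, gave 0.10 ± 0.06.

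Of the 7 assembly factors of complex I, 2 rose and 6 had a positive change. Ndufaf3 read 10.09, 10.24, 9.92 and 9.95 at 8 h, against 9.87, 9.78, 9.84, 9.72 and 9.75 at 2 h. These did not overlap, and the change of 0.27 ± 0.06 had the smallest adjusted p of any member in this comparison (0.00884). Ndufaf7, a methyltransferase that acts on a complex I core subunit, rose by 0.25 ± 0.07 (adjusted p = 0.03). Ndufaf4 gave -0.17 ± 0.09 (adjusted p = 0.301) and did not pass.

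Sdhb, the iron-sulfur protein of complex II, read 11.21, 11.24, 10.86 and 10.76 at 8 h, against 10.96, 10.86, 10.98, 10.66 and 10.65 at 2 h. The groups overlap, yet within each run every 8 h array lay above every 2 h array, and the change was 0.23 ± 0.06 (adjusted p = 0.0143). Sdha, the flavoprotein of the same complex, gave 0.14 ± 0.06, Sdhd 0.20 ± 0.08 and Sdhc 0.05 ± 0.07, the last 2 being its membrane anchors, and these 3 did not pass. In complex III the small subunit Uqcr10 rose. It read 10.30, 10.51, 9.93 and 9.84 at 8 h, against 10.21, 10.21, 10.22, 9.54 and 9.52 at 2 h. Its change was 0.26 ± 0.06 (adjusted p = 0.01), again with both 8 h arrays above the 2 h arrays of the same run. The core proteins Uqcrc1 and Uqcrc2 gave 0.13 ± 0.06 and 0.10 ± 0.05 and did not pass, although all their 8 h values lay above all 2 h values.

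In complex IV, Ndufa4 rose by 0.33 ± 0.10 (adjusted p = 0.0495), just inside the threshold, with values of 10.58, 10.85, 10.12 and 10.07 at 8 h, against 10.34, 10.23, 10.40, 9.64 and 10.04 at 2 h. The catalytic core of this enzyme is encoded in mitochondrial DNA. Cox4i1, the general isoform of subunit 4, gave 0.21 ± 0.09 (adjusted p = 0.148), and Cox6c gave -0.03 ± 0.07. In complex V, Atp5o, the stalk subunit that confers sensitivity to oligomycin, read 10.80, 10.90, 10.41 and 10.45 at 8 h, against 10.72, 10.63, 10.73, 10.06 and 10.03 at 2 h. Its change was 0.26 ± 0.06 (adjusted p = 0.0162). The alpha and beta subunits of the catalytic head, Atp5a1 and Atp5b, gave 0.17 ± 0.06 and 0.05 ± 0.05 and did not pass, nor did the c-ring genes Atp5g1 (0.03 ± 0.10), Atp5g2 (0.07 ± 0.06) and Atp5g3 (0.08 ± 0.06). Atp5e, the epsilon subunit, had the largest value at 0.48 ± 0.19 but also the largest SE of the members. Its values ran from 9.62 to 10.38 at 8 h, against 9.02 to 10.27 at 2 h.

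**Figure D3:**
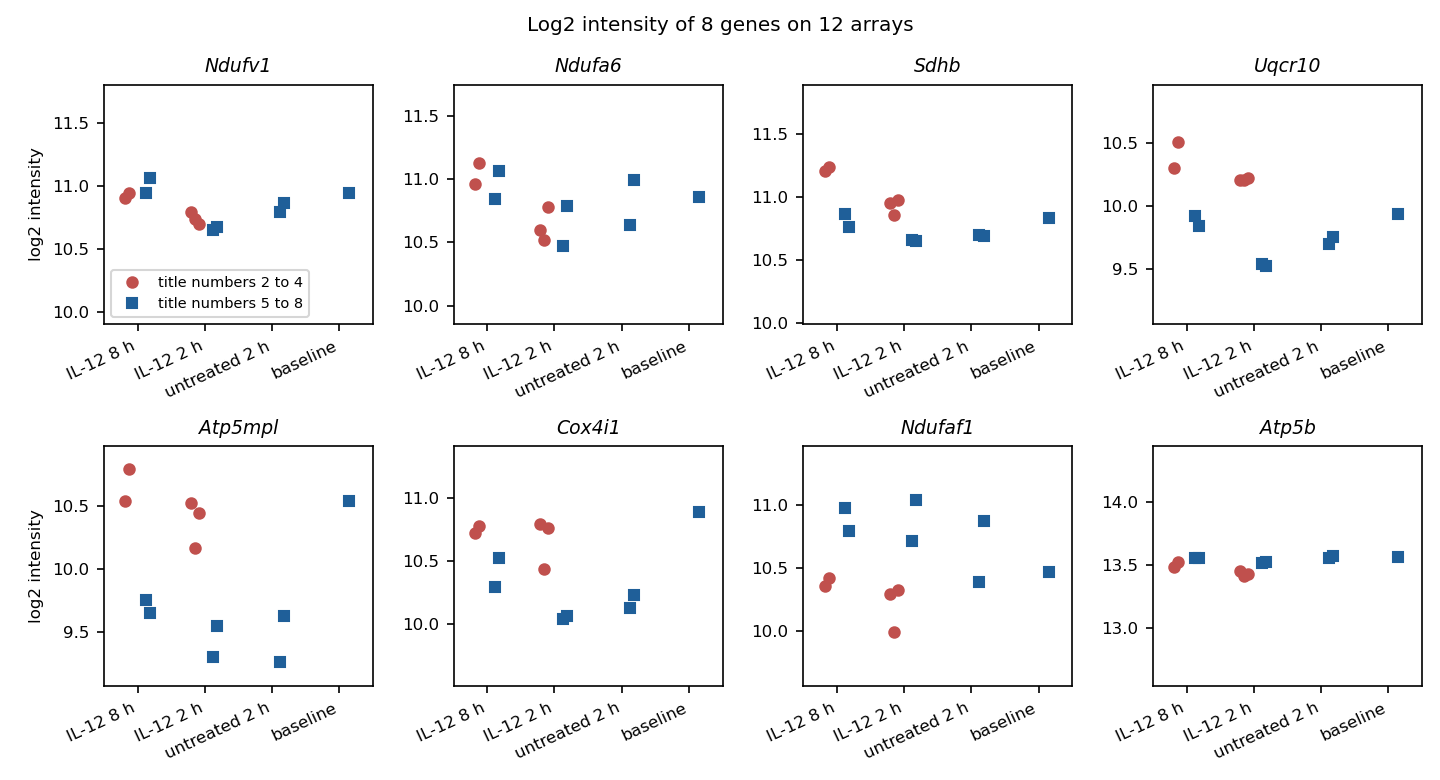
Log2 intensity (y axis, the same span in each panel) of 8 members on the 12 arrays, by group (x axis), with title numbers 2 to 4 as circles and 5 to 8 as squares. Ndufv1 and Ndufa6 are higher at 8 h than at 2 h in both runs, Sdhb and Uqcr10 are higher at 8 h and also differ between runs, Atp5mpl and Cox4i1 mainly differ between runs, Ndufaf1 differs the other way, and Atp5b stays between 13.41 and 13.57.

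All 11 rises were positive in both runs, which the call itself favours, as it was made on these same arrays. Of all 89 members, 61 were positive in both runs, 5 negative in both and 23 of opposite sign. Over all members, 78 of 89 changes were positive within numbers 2 to 4 (median 0.10) and 67 within numbers 5 to 8 (median 0.11). When each run had its own group means, 3 members were called higher in numbers 2 to 4 (6.05% of all genes, with 5.67% lower) and 6 in numbers 5 to 8 (2.03%, with 3.58% lower), and 0 members were lower in each. The difference between the runs in the 8 h against 2 h change passed for 0 of 89 members (smallest adjusted p = 0.349, and 2 with an unadjusted p under 0.05), while 1.79% of all genes were called. Among markers in this comparison, 2 of 11 T cell markers were higher (list median 0.14), 1 of 7 NK cell markers was higher and 1 lower, and 1 of 9 dendritic cell markers was lower. The macrophage (17), B cell (11), neutrophil (10), CD8 (2) and erythroid and platelet (6) lists had 0 calls. The part of the T, NK and dendritic cell markers in the rises was not tested. The count of 11 was not firm: it was 1 without the run term, 2 without the 8 h array numbered 3, and 2 with the title number as a block.

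The number runs separated far more members. With IL-12 arrays numbered 2 to 4 (n = 5) set against those numbered 5 and 6 (n = 4), 42 members were higher and 3 lower, where 11.8% of all genes were called higher and 12.5% lower. The median difference was 0.20 over the members and 0.04 over all genes. In 29 members every IL-12 array numbered 2 to 4 lay above every one numbered 5 and 6 (32.6%, against 8.93% of all genes), and in 3 it lay below (3.37%, against 7.93%). Each of the 42 was positive both among the 8 h and among the 2 h arrays, which the call itself favours, as it was made on these same arrays. Of all 89 members, 66 were positive at both times. The difference between the runs stands beside the shifts in macrophage, NK, B, platelet and other markers given above. With the macrophage mean as a covariate 0 members were called higher, and 0 of all genes as well, since that mean moves with the runs; the marker level and the run cannot be told apart here. The part of the other marker lists was not tested.

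Atp5mpl, a small membrane subunit of complex V, had the largest difference of the members and read 10.54 and 10.79 at 8 h and 10.53, 10.17 and 10.44 at 2 h in numbers 2 to 4. In numbers 5 and 6 it read 9.76 and 9.65 at 8 h and 9.31 and 9.55 at 2 h. The difference was 0.96 ± 0.10 (fold 1.94, adjusted p = 1.32e-05), with a gap between the lowest value of the first run and the highest of the second. Uqcr10 of complex III followed with 0.61 ± 0.06 (adjusted p = 1.3e-05), and Atp5g1, a gene for the c subunit that forms the rotating ring, with 0.58 ± 0.10. Ndufb5, an accessory subunit of complex I, read 11.47, 11.61, 11.47, 11.32 and 11.52 in numbers 2 to 4, against 11.01, 11.05, 10.87 and 10.79 in numbers 5 and 6. It gave 0.56 ± 0.06 without overlap, and Atp5o 0.54 ± 0.06. Atp5l, subunit g of complex V, gave 0.51 ± 0.06 and has 6 probe sets on the array, whose differences all lay between 0.45 and 0.54.

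By complex, 18 of 34 complex I genes were higher and 0 lower, with 16 of the 28 accessory and 2 of the 6 core subunits among them. Of the 7 assembly factors, Ndufaf2 (0.46 ± 0.09) and Ndufaf4 (0.35 ± 0.09) were higher. Ndufaf1 was lower, reading 10.36, 10.42, 10.29, 9.995 and 10.33 in numbers 2 to 4, against 10.97, 10.80, 10.72 and 11.04 in numbers 5 and 6. Those values do not overlap, and the difference was -0.59 ± 0.11 (adjusted p = 0.00114). In complex II, Sdhb (0.34 ± 0.06), Sdhd (0.35 ± 0.08) and Sdhc (0.20 ± 0.07) were higher, while Sdha gave -0.11 ± 0.06 (adjusted p = 0.198). Sdha read 11.59, 11.62, 11.44, 11.30 and 11.40 in numbers 2 to 4, against 11.62, 11.61, 11.53 and 11.60 in numbers 5 and 6, so the runs overlap. Complex III had 4 of 8 higher. Uqcr10, Uqcr11 (0.54 ± 0.09), the hinge protein Uqcrh (0.37 ± 0.05) and Uqcrq (0.26 ± 0.07) were higher, whereas the core proteins Uqcrc1 (-0.04 ± 0.06) and Uqcrc2 (0.05 ± 0.05), the Rieske iron-sulfur protein Uqcrfs1 (-0.06 ± 0.06) and the small subunit Uqcrb (0.03 ± 0.07) did not pass.

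In complex IV, 6 of the 11 generally expressed isoforms were higher, among them Ndufa4 (0.54 ± 0.10), Cox4i1 (0.49 ± 0.09), Cox5a (0.44 ± 0.08) and Cox6b1 (0.41 ± 0.06). Of the 8 tissue-restricted isoforms, 0 were higher and 2 were lower, Cox6a2 of heart and muscle (-0.36 ± 0.10) and Cox6b2 of testis (-0.29 ± 0.07). Cox4i2, the second isoform of subunit 4, gave 0.15 ± 0.07 and Ndufa4l2, the hypoxia-inducible paralogue of Ndufa4, 0.05 ± 0.08, and neither passed. Complex V had 9 of 17 higher, of which 4 were among 5 small membrane subunits and 2 among 3 c-ring genes. Another 2 were among 5 genes of the F1 part, which includes the catalytic head, and 1 among 4 peripheral stalk subunits. The c subunit has 3 genes with one mature product, and they differed in this: Atp5g1 and Atp5g3 (0.37 ± 0.06) passed, while Atp5g2 gave 0.05 ± 0.06. Atp5g1 read 12.70, 12.68, 12.65, 12.84 and 12.56 in numbers 2 to 4, against 12.27, 12.01, 12.198 and 11.95 in numbers 5 and 6, without overlap. Atp5g2 read 13.06, 13.09, 13.01, 13.02 and 13.06, against 13.15, 12.96, 13.02 and 12.89 in those runs, with overlap. The beta subunit Atp5b gave -0.07 ± 0.05 (adjusted p = 0.318) and the alpha subunit Atp5a1 0.20 ± 0.06 (adjusted p = 0.0366). Many of these genes have near-identical processed copies in the genome, and whether probe sets pick up such copies was not tested. In 16 of the 17 members with several probe sets, all probe sets had the same sign.

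**Figure D4:**
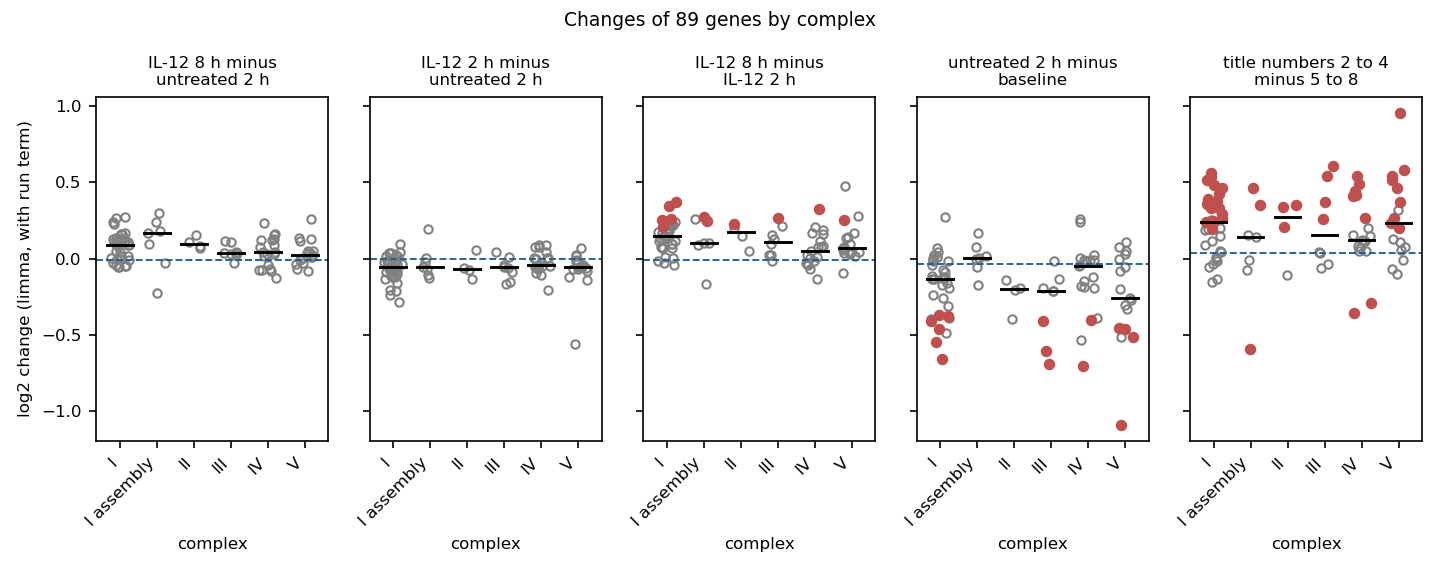
Log2 change of each member (points, y axis) by complex (x axis) in 5 comparisons, each in a panel of its own, with called members filled. Black bars are the median of a complex and the dashed line is the median of all genes, and the filled points number 0, 0, 11 and 15 in the first 4 panels and 42 above with 3 below 0 in the last.

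The untreated cells were set against the single baseline array, so the spread comes from the other groups and the array and its condition cannot be told apart. As numbered, with the array in the second run, 0 members were called higher and 15 lower in untreated cells, against 6.28% of all genes higher and 3.96% lower. With the array coded as numbers 2 to 4 instead, the count of lower members was 1. The median was -0.14 over the members and -0.03 over all genes. Uqcrb, the small subunit of complex III, read 11.99 and 11.95 in untreated cells, against 12.67 at baseline, which lay above all 11 other arrays. Its difference was -0.70 ± 0.12 (adjusted p = 0.00242), and its other 2 probe sets gave -0.57 and -0.57. Ndufv3, an accessory subunit next to the NADH site, read 9.82 and 9.76 in untreated cells, against 10.34 at baseline, again the highest of the 12 arrays (-0.55 ± 0.10, adjusted p = 0.0032). Atp5mpl read 9.26 and 9.63, against 10.54 at baseline (-1.09 ± 0.17, adjusted p = 0.00113), and Cox4i1 10.12 and 10.23, against 10.88 (-0.71 ± 0.16, adjusted p = 0.00997).

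Other lower values in untreated cells were those of Ndufa8 (-0.66 ± 0.13), Uqcr11 (-0.61 ± 0.17), Atp5l (-0.51 ± 0.12), Atp5g3 (-0.46 ± 0.11), Atp5o (-0.46 ± 0.12) and Uqcrh (-0.41 ± 0.09). Of the 15 genes, 14 are among the 42 that were higher in numbers 2 to 4, with Uqcrb as the other one. The same overlap over all genes is not given here, so this count cannot be read as particular to the members. The baseline array is numbered 5, but in 40 of the 42 it lay above the mean of the IL-12 arrays numbered 5 and 6, and in 31 above every other array numbered 5 to 8. In 33 of the 42, both untreated arrays lay below every array numbered 2 to 4. The 42 were chosen for a difference between the IL-12 arrays of the runs, which favours these counts. The same counts over all genes called higher by run are not given here, so they cannot be read as particular to the members. Baseline lay above the mean of the other arrays numbered 5 to 8 in 70 of all 89 members and in 11467 of 19752 genes. With the macrophage covariate the number of members called lower in untreated cells was 0. Untreated cells and the baseline array also differed in 2 of 17 macrophage markers (higher), 3 of 11 B cell markers (lower) and 3 of 6 erythroid and platelet markers (lower). Of 7 NK cell markers 2 were higher and 1 lower (list median 0.46), of 9 dendritic cell markers 2 were higher, and of 2 CD8 markers 1 was higher. Whether the member differences follow from these was not tested beyond that covariate.

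Against untreated cells, 8 h of IL-12 gave 0 members called in each direction, where 1.04% of all genes were called higher and 2.13% lower. Before adjustment, 4 members had a p under 0.05, all of them higher. The log2 difference was positive in 66 of 89 (median 0.05, against -0.01 over all genes). The smallest adjusted p was 0.102, for Ndufb10, which read 8.21, 8.35, 7.85 and 7.97 at 8 h, against 7.55 and 7.73 in untreated cells, without overlap, at 0.28 ± 0.08. In 25 members all 8 h arrays lay above both untreated arrays (28.1%, against 11.8% of all genes), but 2 of those 4 arrays are of the other number run. Ndufs5 gave 0.27 ± 0.10, Ndufa11 0.24 ± 0.09 and Sdhb 0.15 ± 0.08. The comparison rests on 2 untreated arrays, kept for 2 h and not 8 h. Of the marker lists, 1 of 9 dendritic and 1 of 7 NK cell markers were lower and the others had 0 calls.

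After 2 h of IL-12, 0 members differed from untreated cells in limma, where 14 genes (0.0709% of all) were called higher and 0 lower. Before adjustment, 0 members had a p under 0.05 in this comparison. The difference was negative in 66 of the 89, with a median of -0.05, against -0.0032 over all genes, but without the run term the median was 0.08. The T cell markers were negative as well, with 0 of 11 positive (median -0.10), and the B cell markers were positive in 8 of 11 (median 0.12). No marker of these lists was called, and their part was not tested. Atp5e had the largest difference at -0.56 ± 0.26 (adjusted p = 0.999), with 9.43, 10.27, 9.24, 9.02 and 9.58 at 2 h, against 9.73 and 10.02 in untreated cells. Ndufv1 gave -0.12 ± 0.08 and Uqcrb -0.17 ± 0.09. Both IL-12 comparisons share the untreated arrays, and the 2 h arrays also stand in the comparison with 8 h, so the 3 are not independent of each other.

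Counts for other mitochondrial genes are read against 6.27% of all genes higher and 6.36% lower between 8 h and 2 h, and 11.8% higher and 12.5% lower between the runs. Of 77 mitochondrial ribosomal protein genes, 12 rose and 0 fell between 8 h and 2 h of IL-12 (median 0.13), for example Mrpl11 (0.33 ± 0.07) and Mrpl21 (0.36 ± 0.08). Between the runs 47 of them were higher and 0 lower in numbers 2 to 4, led by Mrps36 (1.08 ± 0.11). Of 33 assembly factors of the chain outside the naming rule, 7 rose and 2 fell at 8 h, and 8 were higher and 3 lower in numbers 2 to 4. Lyrm7, which helps to mature the Rieske protein of complex III, rose by 0.29 ± 0.06, and Ttc19, also of complex III assembly, fell by 0.33 on the log2 scale (SE 0.07). Fatty acid oxidation genes rose in 5 of 15, with Echs1 at 0.35 ± 0.05 and Acads at 0.31 ± 0.05, and 0 fell, while between the runs 2 were higher and 2 lower (median 0.0011). Of 20 genes of the tricarboxylic acid cycle and pyruvate dehydrogenase, 1 rose, the kinase gene Pdk2 (0.39 ± 0.09), a share no larger than that of all genes. Between the runs 5 of them were higher and 3 lower.

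Among 18 electron carrier and nucleotide transport genes, 2 rose at 8 h, Etfb of the electron transfer flavoprotein (0.31 ± 0.06) and Pdss2 of ubiquinone synthesis (0.29 ± 0.07). Cytochrome c (Cycs, -0.02 ± 0.05) and cytochrome c1 (Cyc1, 0.03 ± 0.06) did not pass, and between the runs 5 genes of the list were higher and 1 lower. Regulators of mitochondrial biogenesis gave 0 rises and 4 falls of 18 at 8 h, and 2 higher and 2 lower between the runs. Myc, a growth regulator, was at -0.69 ± 0.12 (adjusted p = 0.0013), and the coactivator gene Pprc1 at -0.27 ± 0.07 (adjusted p = 0.0275). Tfam, the factor that transcribes and packs mitochondrial DNA, was at 0.00 ± 0.11, while between the runs it was higher in numbers 2 to 4 by 0.59 ± 0.11 (adjusted p = 0.00191). Of 23 import and chaperone genes, 0 were called at 8 h and 16 were higher in numbers 2 to 4, among them Tomm5 (0.82 ± 0.08), with Hspd1 at 0.15 ± 0.09 not passing. Only 2 mitochondrially encoded respiratory genes were measured, and 0 passed in either comparison.

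The promoter matches were also counted by run. At least 1 of the 3 sites stood in 17 of 36 promoters of members higher in numbers 2 to 4 (47.2%) and in 17 of 37 of the other members (45.9%). The ETS site stood in 30.6% and 18.9%, and the YY1 site in 8.33% and 18.9%, with no test made.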

How the data were processed

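The authors deposited 1 table with the linear intensity of 24922 probe sets on 12 arrays. Per the submitters' processing notes it was made with Affymetrix Power Tools and RMA, with no version. RMA corrects background, gives arrays 1 common distribution and summarises the probes of a probe set, which can shrink differences shared by most genes. Median intensity lay between 160.6 and 167.3 on every array. Which annotation and build the values used is not given in the sources. The deposited intensities were log2-transformed here and not normalized again.

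A single symbol was found for 21425 probe sets in GEO's platform table, which left 19752 genes, and all 89 members matched the gene table by identifier. All 12 arrays entered lmFit and eBayes of limma 3.58.1 (R 4.3.3) with 4 group means and the number run, 7 residual and 6.84 prior degrees of freedom, two-sided tests, and a call where the p adjusted by Benjamini and Hochberg across the 19752 genes was under 0.05. The run term comes from the 9 IL-12 arrays, and the lone baseline array is assumed to vary like the others. A second fit gave each run its own group means. The fit was tested on simulated data, whose settings and outcome are not given here. Plots were drawn with matplotlib 3.10.9 (Python 3.11.15).

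Members and lists were chosen with earlier results of these data known. Named members were drawn mainly from up to 8 called members with the largest rise and up to 8 with the largest fall in each comparison. Up to 2 members of each complex with the smallest p, and a panel of central subunits whatever their result, were added. Not every such gene is given in each comparison. Of other lists, named genes were drawn from up to 2 called genes with the smallest p, with Cyc1, Cycs, Tfam, Pprc1, Myc and Hspd1. Ppargc1b was also in that set, and its values are not given. Alternatives left out each array and changed the run term, the arrays in the fit, the coding of the baseline array, normalization, dim-gene filter, probe set rule, variance prior, a macrophage covariate and a block.

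The title numbers 2, 3, 5 and 6 occur in both IL-12 groups. Deviations of same-numbered samples from their group means correlated across genes at 0.365, 0.300, 0.519 and 0.372, and no label says that a number marks a shared animal or day. After the run means were also removed, they were -0.264, -0.177, 0.0255 and 0.0255. The values of numbers 5 and 6 are equal by construction, as neither IL-12 group holds another array in that run. With so few arrays in each run, these values cannot settle whether samples are paired beyond the run. The number stood as a block only in an alternative, whose count is given beside the result.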

Additional observations from a re-analysis of the deposited data

Results flagged for a closer look

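Of 192 checks for a sample that stands far from the rest of its group, over 89 members and 7 means of complexes and of all members in the IL-12 8 h and 2 h groups, 8 were met, where chance gives about 1 in 20. In each of them a single array was far below the others, and values are log2 intensities. On the 8 h array numbered 6, Cox6c read 13.05, Cox7a1 7.12, Cox7a2l 8.55 and Ndufa2 10.10. Ndufa13 read 10.85 on the 8 h array numbered 5. On the 2 h array numbered 6, Atp5g2 read 12.89 and Ndufa10 11.29, and Atp5pb read 11.79 on the 2 h array numbered 3. None of these 8 genes was called between 8 h and 2 h of IL-12.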

How the results depend on the processing

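Of 244 counts of called members under an alternative, 229 stayed within 1.5 times the count in the report. Of 4775 changes of named members, 4590 kept their direction and their side of the threshold, 159 lost the call, 24 gained one and 2 changed sign. Counts of 0 that stayed 0, and members not called either way, are among those that stayed. These totals therefore say little about the called members, whose counts follow. Rises between 8 h and 2 h of IL-12 (11) numbered 1 with no run term, 0 with only arrays numbered 5 to 8, 6 with only arrays numbered 2 to 4, 5 with the macrophage covariate and 2 with the title number as a replicate block; leaving out 1 array at a time gave 2 to 12, with 2 without the 8 h array numbered 3 and 7 without the 2 h array numbered 5. Falls there (0) numbered 1 with only arrays numbered 2 to 4, and 0 to 1 on leaving out an array. The block could be fitted for this comparison only. Members called lower in untreated than in baseline cells (15) numbered 1 with no run term, 8 with only arrays numbered 5 to 8, 1 with the baseline array coded as numbers 2 to 4 and 0 with the macrophage covariate. With that coding Atp5l (0.0016) and Cox6b1 (0.0085) changed sign. The 42 higher and 3 lower members by run became 0 and 0 with the macrophage covariate, which moves with the run, and lay between 35 and 43 and between 2 and 3 on leaving out an array. Comparisons of IL-12 arrays with untreated cells gave 0 member calls under every alternative tried. The cause of these shifts was not tested. A mean log2 intensity of at least 6 was reached by 88 of 89 members.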
